A study of Mus musculus with 72 samples.

Results

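Nuclear oxidative phosphorylation genes were followed in brain and liver of mice as the animals grew from the embryo to the adult. The genes were chosen by name. A probe set of the array, that is, a group of probes for a transcript, was taken when its annotation held exactly 1 gene symbol starting with Ndufa, Ndufb, Ndufc, Ndufs, Ndufv, Uqcr, Cox4, Cox5, Cox6, Cox7, Cox8 or Atp5, except Cox6b2. This gave 169 probe sets of 85 genes among 18194 genes with 1 symbol, and of several probe sets of a gene the one brightest on average over 72 arrays stands for it. By name, 36 genes belong to complex I, 8 to its assembly factors (Ndufaf genes, which build the complex without being part of it), 8 to complex III, 16 to complex IV and 17 to ATP synthase. The names do not follow function throughout: Ndufa4 is now known to sit in complex IV, and Cox7a2l is an assembly factor of supercomplexes. Of the 85 genes, 81 exceeded the median of all deposited values, 6.66 log2 units, in at least 1 group of each tissue. Cox7a1, Cox7b2, Cox8b and Ndufb4 stayed below it in both tissues and were not compared further.

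Whole brain and whole liver came from males of 3 inbred strains, namely C57BL/6J, here B6, DBA/2J, here D2, and 129S2. They were taken in the embryo at E14.5 and on days 1, 7 and 90 after birth (P1, P7, P90). Animals at P90 had been bought from breeders, B6 and D2 from The Jackson Laboratory and 129S2 from Charles River, and were 11 to 14 weeks old, whereas the younger stages were offspring of such animals. No group had been treated or carried an engineered allele, and there were 24 groups of 3 arrays. So few arrays limit the precision. Nothing in the labels says whether an array holds RNA of 1 animal or of a pool, so the p-values measure the spread between these samples.

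The respiratory chain of the inner mitochondrial membrane passes electrons from NADH and succinate to oxygen through complexes I to IV, and ATP synthase uses the proton gradient they build to make ATP. Most subunits are encoded in the nucleus and a small core in mitochondrial DNA, so the complexes are put together from both. Neurons depend on this chain for most of their ATP, and the liver uses it alongside gluconeogenesis and fatty acid oxidation after birth.

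The deposited values are log2 signals that had been normalized apart in 8 sets of 9 arrays, 1 set for each tissue and stage. Strains were therefore tested within sets, whereas stages and tissues were compared by size after a second, quantile normalization, with no p-value. Neuron markers averaged 11.2 to 12.7 log2 units on the brain arrays and 4.10 to 6.16 on the liver arrays (9 genes), and hepatocyte markers 11.4 to 14.2 on the liver arrays. Hepatocyte markers also reached 6.34 to 9.86 on the brain arrays (8 genes). By stage they averaged 7.72 to 9.86 at E14.5, 8.74 to 9.65 at P1, 8.04 to 9.27 at P7 and 6.34 to 6.56 at P90, as deposited. The source of this signal in brain, and its part in the stage and tissue differences, was not tested. The highest hepatocyte value in brain was on replicate 1 or 2 of B6 E14.5. Over the arrays of that set other than replicate 3 of B6, the median was 8.19. Erythroid markers reached 9.40 on replicate 1 or 2 of the same group, against a median of 8.08. The strain profile of each array, over 400 probe sets picked in the other stages, correlated best with its own strain for 72 of 72 arrays. The correlation across these probe sets, which are not independent replicates, was 0.35 for replicate 2 of 129S2 P90 brain and 0.72 to 0.96 for the others.

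The probe sets of the members gave bright signals in every set, and 1 array stood apart from the rest. A rank by signal sets different probe sets side by side and is no measure of transcript amount, so the ranks serve to compare arrays. By signal the median member ranked at the 97.0th percentile of the 15071 genes tested in P90 brain and at the 96.8th percentile in P90 liver. In E14.5 brain the median was at the 95.0th percentile. On replicate 3 of B6 E14.5 brain it was at 84.1, and on the other 8 arrays of that set between 93.8 and 95.9. Of the 81 members, 73 were lower on that array than on the other arrays of its group, 56 of them at least 1.5-fold, with a median difference of -1.19 log2 units. Over all genes the median difference was 0.03, and 7.23% were at least 1.5-fold lower. The next lowest array of the 72, replicate 1 of D2 E14.5 liver, had a median of -0.14. On replicate 3 of B6 E14.5 brain, Ndufa2, a small subunit of complex I, stood lowest of the members with -2.59. The 3 arrays of D2 P1 liver stood apart in control probe sets, and their values are given with the strain results of liver.

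**Figure D1:**
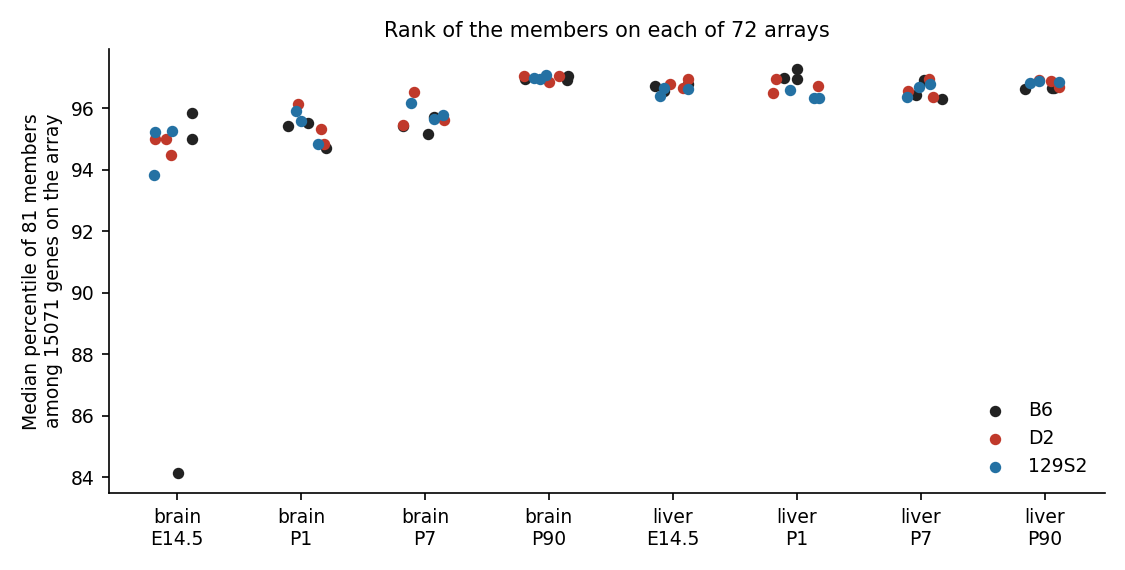
Median percentile of the 81 tested members among 15071 genes on each of the 72 arrays (vertical axis, percentile), by tissue and stage, with 1 point per array coloured by strain. All arrays lie at 93.8 or above except replicate 3 of B6 E14.5 brain at 84.1.

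Other mitochondrial genes were low on the same array. The 16 genes of the large subunit of the mitochondrial ribosome averaged 9.66 log2 units on it and 10.1 to 10.4 on the other 8 arrays of the set. Genes of the TCA cycle averaged 10.99, inside the range of 10.98 to 11.16 of the others. ND5, the only mitochondrially encoded subunit measured, was at 13.96 on it and at 13.50 to 13.71 on the others. Neuron markers were higher (11.79 against 11.23 to 11.43) and neural progenitor markers lower (10.56 against 11.01 to 11.67). The difference between the 3' and the 5' control probe sets of Gapdh, which grows as RNA breaks down, was -0.20 on it and -0.16 to 0.04 on the others. For Actb it was 0.31 against 0.40 to 0.64. The part of these differences in the low values of the members was not tested, and for comparisons that use E14.5 brain the counts, the medians and the differences that moved are given with and without the array.

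Between E14.5 and P90, the nuclear oxidative phosphorylation genes of the brain were higher relative to other genes. The median member differed by 0.54 log2 units after quantile normalization, against -0.20 for all 14181 genes tested, and 76 of 81 members lay above the median gene. As deposited, the median member differed by -0.05 and the median gene by -0.96, so the sign for the members depends on the scale and their place above other genes does not. Centring each array on its median gave 0.81 and -0.10. Centring shifts all genes of an array alike, so it repeats the deposited distance and is no further check. A member was counted as higher when it differed by at least 1.5-fold upward in each of 3 strains. That held for 24 of 81 members (19.4% of all genes tested), while 5 were higher on the deposited scale (8.55% of all genes) and 47 after centring (22%). As deposited 7 were lower (60.1%), and after centring 1 (26.1%). Only Cox7c and Cox8c were lower by this rule (28.4% of all genes). At a 2-fold minimum, 10 members were higher (12.1% of all genes) and 0 lower (15.9%). Without the low B6 array, 21 of the 24 still met the rule and Atp5k, Ndufa6 and Uqcr10 did not, and the median was 0.46.

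By complex, 12 of 35 tested members of complex I were higher in P90 brain, 0 of 8 assembly factors, 2 of 8 members of complex III, 6 of 13 of complex IV and 4 of 17 of ATP synthase. The medians of these groups lay close together, between 0.50 for the assembly factors and 0.63 for complex I. With the low B6 array left out the counts were 11, 0, 1, 6 and 3, and the medians lay between 0.38 for complex IV and 0.48. In complex I both arms were represented. Ndufs1, the largest subunit of the NADH-oxidising arm and a carrier of iron-sulfur clusters, differed by a similar amount in each strain. Its normalized values were 10.15, 10.18 and 10.38 (lowest, median and highest of 9 arrays) at E14.5 and 11.22, 11.27 and 11.34 at P90. The groups did not overlap, and the difference was 1.06 ± 0.02 (SD over 3 strains). All strains of a stage were normalized in 1 set, so this SD does not show an offset between sets. Ndufv1, which binds NADH, differed by 0.85 ± 0.04. Ndufs7 and Ndufs8, which carry the clusters next to the quinone site, differed by 1.24 ± 0.18 and 1.03 ± 0.11. Ndufb8, a subunit of the membrane arm, differed by 1.25 ± 0.06 and was higher on every P90 array than on any at E14.5. When the low B6 array was left out, Ndufs1 differed by 1.09, Ndufv1 by 0.83, Ndufs7 by 1.06, Ndufs8 by 0.91 and Ndufb8 by 1.15.

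The largest differences of the brain belonged to small accessory subunits. Atp5md, a small membrane subunit that helps ATP synthase form dimers, was at 8.81, 10.43 and 10.81 (lowest, median, highest) at E14.5 and at 12.06, 12.11 and 12.21 at P90. Its difference was 1.85 ± 0.27, or 1.64 ± 0.09 without the low B6 array. Between them it lay at 10.84 to 11.12 (P1) and 11.09 to 11.33 (P7), so each stage had a higher median than the one before. Ndufa5, an accessory subunit of complex I, went from 8.05, 10.09 and 10.43 to 11.62, 11.69 and 11.82, a difference of 1.77 ± 0.34 (1.51 ± 0.17 without the array). Its other probe set gave 0.97. Ndufs5, an accessory subunit of complex I that faces the intermembrane space, differed by 1.63 ± 0.17 (1.40 ± 0.24 without the array). The groups of E14.5 and P90 did not overlap for any of these members.

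Atp5g1, which encodes the ring subunit c of ATP synthase, differed by 1.29 ± 0.12 in brain, and by 1.12 ± 0.21 without the low B6 array. Its values were 9.30, 10.65 and 10.92 at E14.5 and 11.70, 11.84 and 12.01 at P90. In complex IV, Cox4i1, the common form of subunit 4, differed by 0.78 ± 0.08, with 12.27 to 12.96 at E14.5 and 13.54 to 13.63 at P90. Atp5b, the catalytic beta subunit of ATP synthase, differed by 0.68 ± 0.07. Without the array the values were 0.71 for Cox4i1 and 0.73 for Atp5b. In complex III, the small subunit Uqcr11 differed by 1.00 ± 0.35, with 1.41 in B6 and 0.79 and 0.80 in D2 and 129S2, or 0.73 ± 0.12 without the array.

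**Figure D2:**
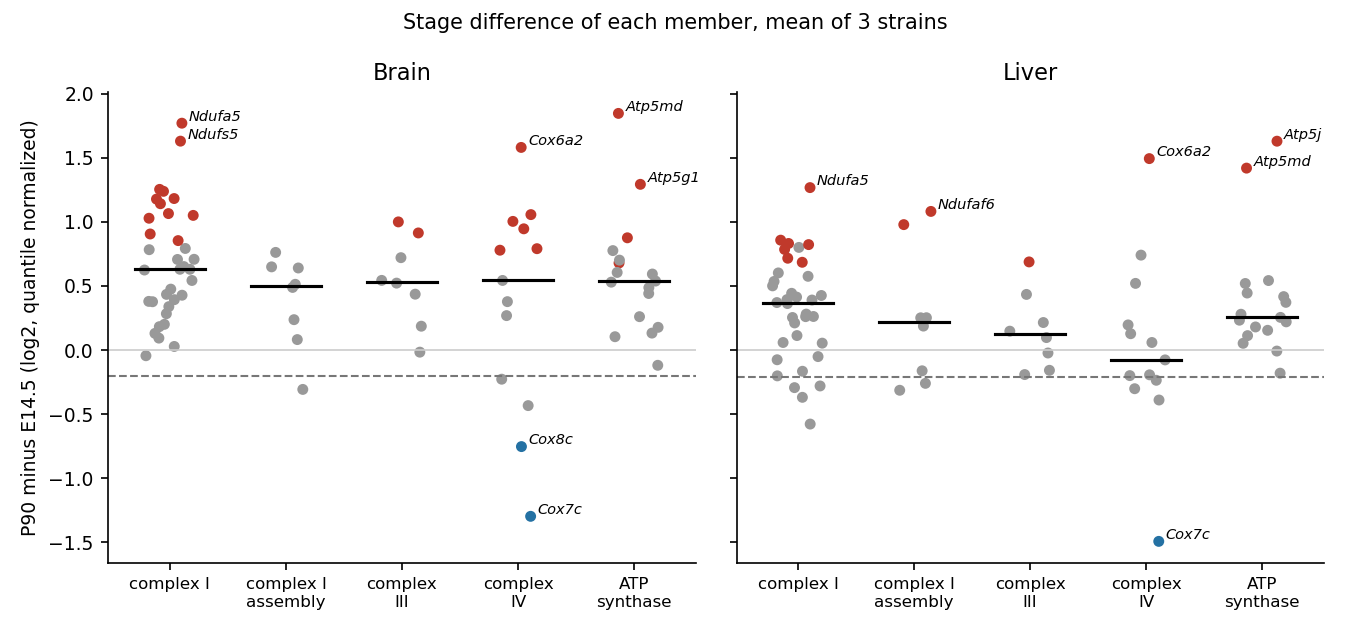
Difference between P90 and E14.5 for each of 81 members (vertical axis, log2 units after quantile normalization, mean of 3 strains), by complex, in brain and liver. Red points are at least 1.5-fold higher in each strain (24 in brain, 13 in liver), blue points lower (2 and 1), solid bars are medians of a complex, and the dashed line is the median of all genes (-0.20 and -0.21). On the deposited scale the median member is at -0.05 in brain and -0.61 in liver.

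At the low end in brain stood Cox7c with -1.30 ± 0.30, Cox8c with -0.75 ± 0.05 and Cox4i2 with -0.43 ± 0.01. Cox7c, a small subunit of complex IV that all tissues use, was read here by a dim probe set, with a mean of 7.48 log2 units. Its values were 8.34, 8.65 and 9.16 at E14.5 and 7.18, 7.33 and 7.64 at P90. Its other probe set, dimmer still, gave -0.93. Whether either of them reads the main transcript of Cox7c was not tested. Cox8c, the testis form of subunit 8, was at 9.23 to 9.75 and then at 8.60 to 8.96, and its other probe set gave -1.94. Ndufaf6, Cox7a2l and Atp5e were the next lowest, with -0.31, -0.23 and -0.12. Without the low B6 array Atp5e was at -0.40, Ndufaf6 at -0.37 and Cox7a2l at -0.27, while Cox7c stayed at -1.30.

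Single steps between stages were smaller in brain. From E14.5 to P1 the members' median was 0.24, 1 was higher (10.2% of all genes) and 1 lower (8.1%), namely Ndufb1 with 0.84 and Cox7c with -0.96. Without the low B6 array the median of this step was 0.13, Ndufb1 with 0.72 no longer met the rule, so that 0 were higher (10.9% of all genes), and Cox7c with -0.97 was still the 1 lower (8.85%). From P1 to P7 the median was 0.10, and Cox6a2, the muscle form of subunit 6a, with 1.10 was the only member counted as higher (4.58%), while 0 were lower (2.14%). From P7 to P90 the median was 0.26 (-0.33 as deposited), 12 members were higher (10.2%) and 2 lower (22.5%). Ndufaf2, an assembly factor of complex I, had the largest upward difference of that step with 0.99, next to Ndufs5 with 0.97.

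In liver the difference of the median member also lay above that of the median gene. Whether by more or by less than in brain depended on the scale. The rank of the members by signal hardly moved in liver. The median member was at the 96.7th percentile at E14.5 (96.4 to 97.0 over the arrays) and at the 96.8th at P90 (96.6 to 96.9). These ranges overlapped, so the difference from the median gene did not come with a higher rank. The median member was 0.25 higher at P90 than at E14.5 on the quantile normalized scale, against -0.21 for all 13145 genes, and 71 of 81 members lay above the median gene. As deposited the values were -0.61 and -1.70, and after centring 1.08 and 0.00. By the rule of 1.5-fold in each strain, 13 members were higher (20.9% of all genes) and 1 was lower (31.1%). On the deposited scale 1 was higher (6.69% of all genes) and 33 were lower (76.5%), and after centring 65 were higher (26.7%) and 1 lower (25.6%). At 2-fold, 4 were higher (14.1%) and 1 lower (19.8%). The 13 comprised 7 of 35 members of complex I, 2 of 8 assembly factors, 1 of 8 of complex III, 1 of 13 of complex IV and 2 of 17 of ATP synthase. Probe sets of a gene differed more often in liver. Of 76 further probe sets of members, 47 had the sign of the one used in liver, against 61 in brain.

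Atp5j, coupling factor 6 in the stalk of ATP synthase, had the largest difference in liver, 1.63 ± 0.06. Its values were 10.84, 11.04 and 11.17 at E14.5 and 12.10, 12.18 and 12.41 at P1. They were 12.26 to 12.58 at P7, and in the adult 12.55, 12.64 and 12.73. Most of the difference thus lay between E14.5 and P1 (1.20), and the arrays of these stages did not overlap. Atp5md differed by 1.42 ± 0.10 and Ndufa5 by 1.27 ± 0.17, the latter almost all between P7 and P90 (1.14). The other probe set of Ndufa5 gave -0.03 in liver. Ndufaf6, an assembly factor for the membrane arm of complex I, differed by 1.08 ± 0.29 (-0.33 as deposited) and Ndufaf2 by 0.98 ± 0.24 (-0.46 as deposited). Cox7c, read by the dim probe set, was the 1 member counted as lower, with -1.49 ± 0.14, and its other probe set, dimmer still, gave -0.91. Ndufb1, Cox8a, Ndufc2, Ndufaf5 and Cox6a1 followed, with -0.58, -0.39, -0.37, -0.31 and -0.30.

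By step in liver, the members' median was 0.10 from E14.5 to P1, -0.01 from P1 to P7 and 0.10 from P7 to P90. In the first step Atp5j, Uqcrq and Atp5md were higher (16.2% of all genes) and Ndufaf5 lower with -0.72 (14.4%). In the second step Ndufaf6 was higher with 0.79 (4.21%) and Ndufaf4 lower with -0.83 (2.53%). Both steps use the D2 P1 arrays that stood apart in control probe sets, and no version without these arrays was made. In the last step 7 members were higher (9.52%), led by Cox6a2 with 1.19, and 0 lower (22.9%). Across tissues, 8 members were counted as higher between E14.5 and P90 in both, 16 in brain only and 5 in liver only. The number with opposite counts was 0. These classes were counted for members only. The share of all genes in each class was not computed, so whether these numbers are unusual was not tested. Whether the tissues differ in the members counted was not tested either, since the tissues belong to sets normalized apart.

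Cell type markers moved in the same interval. In brain, 7 of 7 astrocyte markers (median 3.46) and 6 of 6 oligodendrocyte markers (3.66) were higher at P90, 6 of 9 neuron markers were higher and 1 lower (1.39), and 7 of 7 neural progenitor markers were lower (-2.72). The mean level of the progenitor markers was 10.6 to 11.7 on the E14.5 arrays and 6.98 to 7.39 on the P90 arrays as deposited. That of the oligodendrocyte markers was 7.33 to 7.53 and then 9.87 to 10.3. In liver, 6 of 6 tested erythroid markers were lower (-6.63). The fetal liver is also the organ that makes red blood cells. The mean level of the 7 erythroid markers was 11.8 to 12.1 on the E14.5 arrays and 5.25 to 5.46 on the P90 arrays. Hepatocyte markers had 4 of 8 higher and 1 lower (1.79). In whole tissue, fewer cells of a type and less RNA per cell cannot be told apart, and the part of cell mix in the differences of the members was not tested.

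Related pathways were read in the same way. Of 4 genes of complex II, which is encoded entirely in the nucleus, 2 were higher in brain (median 0.67; Sdha with 1.11) and 3 in liver (1.28; Sdhc with 1.38). Of 15 TCA cycle genes, 6 were higher and 0 lower in brain, and 4 higher and 3 lower in liver. Of the glycolysis genes, 9 of 14 were higher and 0 lower in brain (1.03), led by the neuronal enolase Eno2 with 4.14. In liver 1 of 13 was higher and 5 were lower (-0.64), with the hexokinase Hk1 at -4.36. On the deposited scale the medians of glycolysis were 0.41 and -2.05, and those of complex II 0.04 and 0.34. ND5 differed by 0.75 in brain and 0.80 in liver.

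The factors that assemble complex IV and deliver its copper did not share 1 direction. In brain 3 of 16 were higher and 3 lower, with Surf1 at 1.53, Cox17 at 1.41 and Sco1 at -1.75. In liver 4 were higher and 1 lower, with Sco2 at 3.20 and Cox17 at -1.75. Of 14 other assembly factors, 4 were higher and 3 lower in brain, and of 13 in liver 2 were higher and 1 lower. Of 16 genes of the mitochondrial ribosome, 1 was higher and 2 lower in brain, and 1 higher and 3 lower in liver. For the outer membrane channel and import list the counts were 1 higher and 1 lower of 10 in brain and 0 higher and 5 lower in liver, and for cytochrome c and cytochrome c1 0 of 2 in either direction in both tissues.

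Regulators of mitochondrial biogenesis, the transcription factors and coactivators that act on nuclear genes for the respiratory chain, did not share 1 direction. In brain 3 of 12 were higher and 7 lower. The coactivator Ppargc1b differed by 2.79, and Gabpa and Gabpb1, the subunits of a factor that binds many of these promoters, by -1.86 and -1.69. In liver 4 of 11 were higher and 4 lower. There Nrf1, a factor with sites in promoters of the family, differed by -1.57, and the coactivators Ppargc1b and Ppargc1a by 1.31 and 1.24.

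Since members and regulators are both at hand, promoters were searched for the sites of these factors. RefSeq promoters of GRCm38.p6, windows of 300 bases from 250 before to 50 after a start, were found for 70 of the 85 members. Both strands were searched for the NRF1 palindrome (GCGCA followed by its reverse complement), CCGGAAG (GABPA) and ATGGCGG (YY1). The NRF1 letters stood in 6 member genes, or 8.57%, and in 1.07% of 27025 genes. The GABPA letters stood in 17 (24.3%, against 9.93%) and those of YY1 in 11 (15.7%, against 4.69%). A match describes the letters and is not a measured site. The 6 genes with the NRF1 letters were Atp5g2, Atp5k, Cox6a1, Ndufaf4, Ndufaf5 and Uqcrc1. Among the 24 members higher in P90 brain, 19 had a promoter, of which 1 held the NRF1 letters (Atp5k) and 6 those of GABPA, against 5 and 11 of 47 tested members that were not higher.

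The 250 bases before the start are shown for 3 genes that hold the NRF1 letters, because Atp5k was counted as higher in P90 brain and Cox6a1 and Atp5g2 were not, and for Ndufs5, which holds none of the 3 motifs and shows the strain difference described further on. Capitals mark motif letters. Each gene lies on the minus strand and is printed 5′ to 3′ in its own direction: Atp5k (subunit e of ATP synthase) at chr5:108434400-108434649, Cox6a1 (the common form of subunit 6a) at chr5:115348959-115349208, Atp5g2 (subunit c) at chr15:102671048-102671297 and Ndufs5 at chr4:123718187-123718436.
Atp5k: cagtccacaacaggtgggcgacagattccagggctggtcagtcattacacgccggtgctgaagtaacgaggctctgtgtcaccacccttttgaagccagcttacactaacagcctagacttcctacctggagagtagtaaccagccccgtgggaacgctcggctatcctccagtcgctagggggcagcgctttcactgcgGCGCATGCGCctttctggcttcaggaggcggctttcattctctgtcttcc
Cox6a1: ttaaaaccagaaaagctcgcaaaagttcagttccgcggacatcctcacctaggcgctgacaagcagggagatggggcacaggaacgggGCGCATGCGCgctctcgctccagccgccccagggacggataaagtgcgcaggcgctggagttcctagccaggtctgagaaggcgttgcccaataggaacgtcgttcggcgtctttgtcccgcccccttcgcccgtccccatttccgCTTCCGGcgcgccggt
Atp5g2: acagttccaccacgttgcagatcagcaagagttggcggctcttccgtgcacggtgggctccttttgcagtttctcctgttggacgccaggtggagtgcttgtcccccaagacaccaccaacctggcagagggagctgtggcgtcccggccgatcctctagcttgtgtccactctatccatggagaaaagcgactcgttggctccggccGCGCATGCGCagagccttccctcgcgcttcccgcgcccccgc
Ndufs5: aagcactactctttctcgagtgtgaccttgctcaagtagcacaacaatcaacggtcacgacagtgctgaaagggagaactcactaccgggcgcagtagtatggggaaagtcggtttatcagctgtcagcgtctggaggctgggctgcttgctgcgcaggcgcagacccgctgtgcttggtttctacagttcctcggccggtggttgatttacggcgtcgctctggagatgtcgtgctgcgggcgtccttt
Atp5k, Cox6a1 and Atp5g2 carry the same 10 letters, and Cox6a1 also has CTTCCGG, the GABPA letters read on the other strand. Atp5k has the GABPA letters too, in a stretch of its window that reaches past the start and is not wholly printed. Of the 3, Atp5k was counted as higher in P90 brain (0.88 ± 0.33, or 0.64 ± 0.08 without the low B6 array), while Cox6a1 (0.27 ± 0.15, and 0.16 without it) and Atp5g2 (0.26 ± 0.27, and 0.11 without it) were not.

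Several subunits of complex IV and ATP synthase exist in a common form and in a form known for 1 tissue or condition. Their ratio on the same array does not depend on a shift of the whole array. It can still depend on a scaling that moves bright and dim probe sets by different amounts. Values as deposited are given beside some of the ratios. Cox4i2, the form of subunit 4 known from lung and low oxygen, was lower relative to Cox4i1 in adult brain. The log2 ratio, set to 0 at the mean of E14.5, was -0.38, -0.21 and -0.12 (lowest, median, highest of 9 arrays) at P7 and -1.35, -1.20 and -1.14 at P90. The groups did not overlap, and the difference between P90 and E14.5 was -1.21 ± 0.08 (SD over 3 strains, and -1.72 as deposited), or -1.15 without the low B6 array. In liver the same ratio differed by -0.43 ± 0.06 (-1.41 as deposited), and its 9 P90 arrays lay at -0.53 to -0.26, all below those of E14.5. Cox4i2 itself is dim, at 6.56 to 6.88 in E14.5 brain and 6.15 to 6.34 at P90.

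Cox6a2, the form of subunit 6a known from heart and skeletal muscle, was higher relative to Cox6a1 at P90 in both tissues. In brain the ratio was between -0.13 and 0.12 at P1 and between 0.72 and 1.14 at P7, a step of 1.00, and the difference from E14.5 reached 1.31 ± 0.11 at P90 (1.42 ± 0.28 without the low B6 array). In liver it was between 0.27 and 0.52 at P7 and between 1.68 and 1.90 at P90, a step of 1.42, for 1.80 ± 0.07 in all. No P90 array overlapped those of E14.5. As deposited the differences were 0.92 and 0.65, and with all probe sets averaged 0.62 and 0.50. Cox6a2 was at 6.34, 6.49 and 6.67 in E14.5 brain and at 7.88, 8.06 and 8.32 at P90, and at 5.92 to 6.21 and then 7.49 to 7.71 in liver. Its other probe set, which is dimmer, gave 1.00 in brain but -0.62 in liver, so the value in liver rests on 1 probe set, and Cox6a2 alone differed by -0.05 there on the deposited scale. Striated muscle markers had 2 of 8 higher and 2 lower in brain, and 2 of 6 higher and 1 lower in liver. Their mean level over 16 genes was 5.66 to 6.38 on the brain arrays and 4.26 to 6.00 on the liver arrays, below the filter.

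Atp5g1, Atp5g2 and Atp5g3 encode the same mature subunit c behind different import signals. In brain Atp5g2 was lower relative to Atp5g1 from P1 on. The P1 arrays had ratios of -1.23, -1.05 and -0.88. Those of P7 had -1.95, -1.58 and -1.44, and those of P90 -1.16, -1.01 and -0.95. No array of these stages overlapped those of E14.5, and the difference at P90 was -1.03 ± 0.22. For Atp5g3 against Atp5g1 it was -1.12 ± 0.11. These were -1.02 and -0.98 without the low B6 array. In liver they were -0.39 ± 0.28 and -0.32, and with the mean of all probe sets of a gene -0.01 and 0.20. Cox7a2l against Cox7a2 differed by -0.77 ± 0.10 in brain and -0.33 ± 0.30 in liver, and by -0.65 ± 0.18 in brain without the array, where it was no longer past 1.5-fold in each strain. Ndufa4l2, the paralog of Ndufa4 known from low oxygen, against Ndufa4 differed by 0.04 in brain (0.18 without the array) and 0.74 ± 0.20 in liver (-0.10 as deposited). Of these pairs in the 2 tissues, 6 changes were past 1.5-fold in each strain, 5 when probe sets were averaged, and 5 without the low B6 array.

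**Figure D3:**
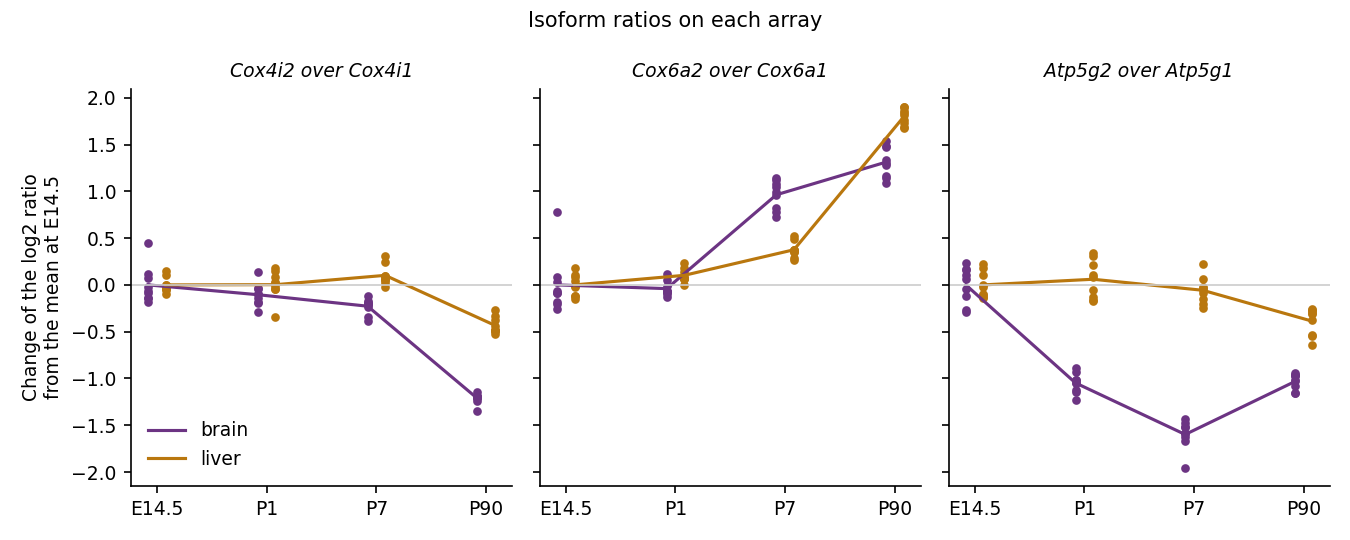
Change of the log2 ratio of 2 isoforms from its mean at E14.5 (vertical axis, log2 units after quantile normalization) by stage, with 1 point per array and lines through the means, in brain and liver. Cox4i2 against Cox4i1 drops at P90 (-1.21 in brain), Cox6a2 against Cox6a1 reaches 1.31 in brain and 1.80 in liver (0.92 and 0.65 as deposited), and Atp5g2 against Atp5g1 is below E14.5 at all later stages in brain.

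Brain and liver were compared as the mean over 4 stages, after quantile normalization of all 72 arrays. The median member was -0.29 log2 units in brain against liver, and the median of 15071 genes -0.15. As deposited the values were -0.05 and 0.61, and after centring, which keeps the deposited distance, -0.87 and -0.21. The members thus lay below the median gene on both the quantile normalized and the deposited scale. By the rule of 1.5-fold in each strain, 1 member was higher in brain (26.2% of all genes) and 10 were lower (29.7%), on the deposited scale 4 (47.6%) and 1 (13.5%), and after centring 1 (24.7%) and 62 (31.9%). At 2-fold, 0 were higher and 1 was lower (18.9% each). By stage the members' median was -0.49 (E14.5), -0.30 (P1), -0.21 (P7) and -0.10 (P90). As deposited these medians were -0.41, -0.07, 0.11 and 0.19. Values at P1 and over the 4 stages include the D2 P1 liver arrays that stood apart in control probe sets. No version without all of these arrays was made. Without the low B6 array the median was -0.35 at E14.5 and -0.26 over the 4 stages, with 1 member higher (26.1% of all genes) and the same 10 lower.

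A small subunit of complex III, Uqcrq, was the lowest member in brain against liver, followed by Ndufaf1, Ndufaf8 and Atp5g1. In complex III, 0 of 8 members lay above the median gene. Uqcrq, a subunit of complex III next to cytochrome b, differed by -1.16 ± 0.10. It was at 8.92, 10.93 and 11.18 in E14.5 brain against 11.80, 11.96 and 12.23 in E14.5 liver, and at 11.42 to 11.78 against 12.51 to 12.67 at P90, with no overlap at either stage. Uqcr11 differed by -0.87 ± 0.15 and Uqcr10 by -0.85 ± 0.13. Uqcr10 overlapped at P90, where its difference was -0.19. Assembly factors of complex I stood at both ends. Ndufaf1 differed by -1.11 ± 0.16, Ndufaf8 by -1.05 ± 0.14 and Ndufaf4 by -0.80 ± 0.05. Ndufaf5, which modifies a subunit of the quinone site, was the member counted as higher in brain, with 0.69 ± 0.05, from -0.15 at E14.5 to 1.24 at P1. Atp5g1 differed by -0.95 ± 0.14, but by 0.34 when its probe sets were averaged. Without the low B6 array Uqcrq differed by -0.97 at E14.5, and over the 4 stages the values of Uqcr11, Uqcr10, Ndufaf1, Ndufaf8, Ndufaf4, Ndufaf5 and Atp5g1 were -0.80, -0.80, -1.11, -1.01, -0.78, 0.71 and -0.90. The next highest in brain were Ndufaf3, Ndufb5, Cox6a1, Ndufa4l2 and Cox7a2l with 0.44, 0.20, 0.19, 0.17 and 0.10.

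Between strains, few members were called in brain. Tested with limma on the deposited values over 36 arrays, 1 of 81 members was called in any of the 3 strain pairs, which needed 1.5-fold and a p below 0.05 after Benjamini-Hochberg adjustment (2.12% of all genes). With no fold minimum there were 6 (23.7%), and 15 without the low B6 array (25% of all genes). D2 lay above B6 for 67 of 81 members with a median of 0.094, and for 41 with a median of 0.002 when that array was left out. For 129S2 against B6 the values were 64 members and 0.068, and without the array 31 and -0.011. The shift of the family against B6 in brain therefore rested on 1 array of E14.5.

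Ndufs5 was the member called, lower in 129S2. In P90 brain it was at 10.91, 11.54 and 10.96 on the 3 arrays of 129S2, at 11.69, 11.74 and 11.69 on those of B6 and at 11.76, 11.69 and 11.78 on those of D2. The highest of the 129S2 values is that of replicate 2, the array with the weak strain profile. All arrays of 129S2 were lower than all of D2 at each of 4 stages in brain, and lower than all of B6 at 3 of 4. Averaged over stages, 129S2 minus D2 was -0.61 ± 0.14 (SE), a 1.52-fold difference, with an adjusted p of 0.00366 in limma. Without replicate 2 of 129S2 P90 it was -0.66, with an adjusted p of 0.00202. Against B6 it was -0.45 (adjusted p = 0.033), below the fold minimum, and -0.62 (adjusted p = 6.3e-08) without the low B6 array. The call against D2 sat at the fold minimum: leaving out replicate 1 of 129S2 P1, D2 P1, D2 P7 or 129S2 P90, or replicate 3 of 129S2 P90, gave -0.58 in each case with adjusted p from 0.0082 to 0.00921.

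In liver Ndufs5 was also lower in 129S2, with the largest differences at P90. The 129S2 arrays of P90 were at 10.05, 10.01 and 10.06, against 10.77, 10.75 and 10.75 in B6 and 10.80, 10.92 and 10.80 in D2. The groups did not overlap, and the differences at P90 were -0.72 against B6 (adjusted p = 1.18e-06) and -0.80 against D2 (adjusted p = 2.4e-07). Over 4 stages they were -0.43 ± 0.05 and -0.42 ± 0.05. A further probe set, annotated to Ndufs5 together with its pseudogene and so outside the rule, did not share the difference. For 129S2 it gave -0.17 against D2 and 0.04 against B6 in brain, and 0.10 and 0.14 in liver. The strain difference of Ndufs5 thus rests on 1 probe set.

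**Figure D4:**
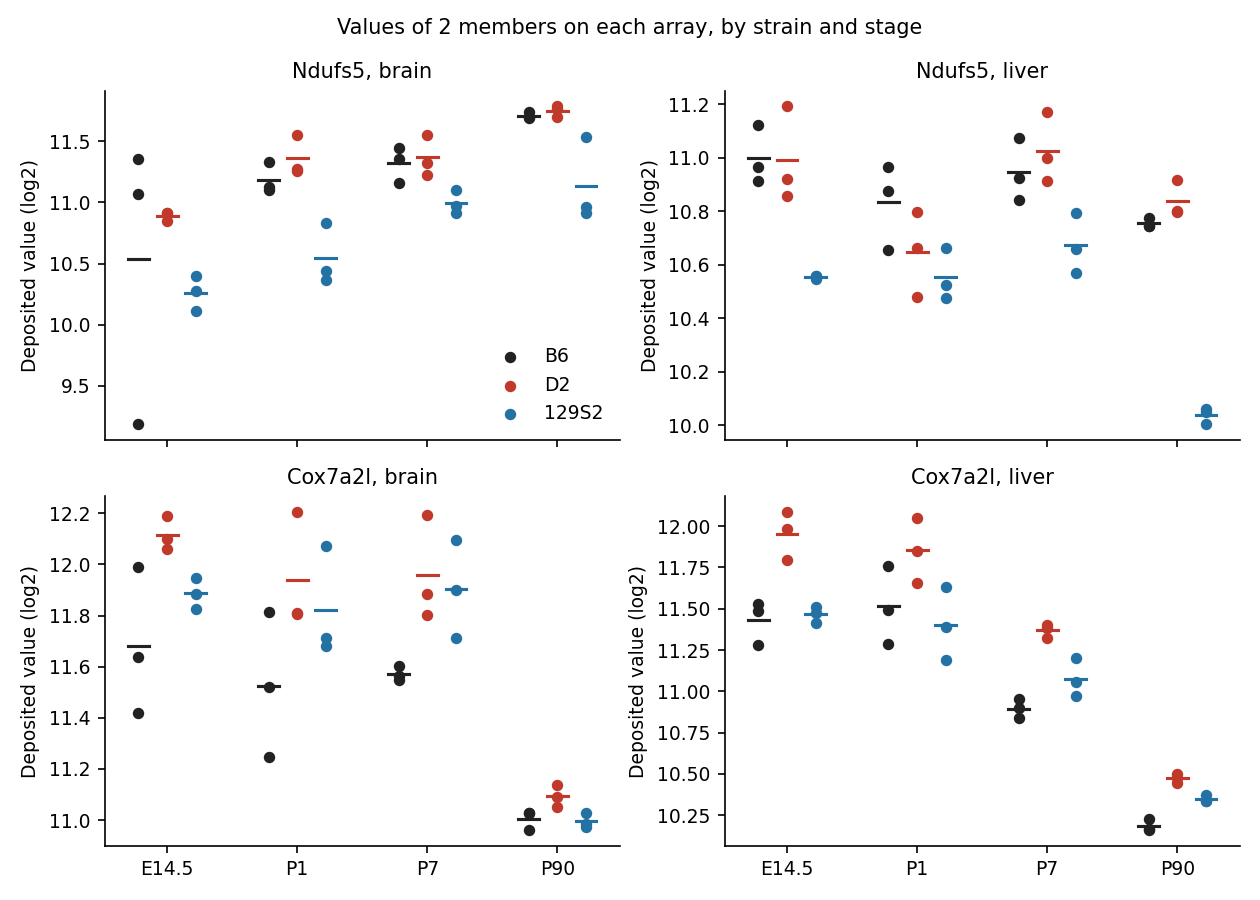
Deposited log2 values of Ndufs5 and Cox7a2l (vertical axes, scaled per panel) on each array by stage and strain, in brain and liver, with bars at the means of 3 arrays. Ndufs5 is lower in 129S2, by 0.72 to 0.80 in P90 liver, and Cox7a2l is higher in D2 than in B6, by 0.33 in brain and 0.40 in liver on average.

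Smaller differences passed the adjusted p but not the fold minimum, and those named here were chosen after their values were seen. Cox7a2l, which joins complexes III and IV into supercomplexes, was higher in D2 than in B6 in both tissues, by 0.33 ± 0.07 in brain (adjusted p = 0.000702 in limma) and 0.40 ± 0.05 in liver. Its 3 probe sets gave 0.30 to 0.33 in brain and 0.24 to 0.40 in liver. In liver all D2 arrays were above all 129S2 arrays at each of 4 stages. Ndufaf7, a methyltransferase that acts on complex I, was lower in brain of 129S2 and D2 than of B6, by 0.31 and 0.27. Its B6 arrays lay above those of both other strains at each of 4 stages. Cox5a, a subunit of complex IV, was higher in liver of D2 than of B6 by 0.24 ± 0.04, with 0.19 to 0.24 over 3 probe sets. For Ndufa12 in liver the probe sets gave opposite signs, -0.15 for the one used and 0.23 and 0.32 for the others.

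In liver 0 of 81 members were called over the 3 strain pairs (5.43% of all genes), while 30 passed the adjusted p alone in limma (46.4%) and 47 an unadjusted p of 0.05 (60.5%). The assembly factor Ndufaf6 had D2 lower than B6 by 0.37 ± 0.04 and lower than 129S2 by 0.38. At P90 it was at 7.79, 7.84 and 7.64 in D2, 8.36, 8.30 and 8.47 in B6 and 8.54, 8.38 and 8.30 in 129S2. D2 did not overlap the others there, and D2 minus B6 was -0.62 (adjusted p = 4.44e-06 in limma). Ndufaf5 was lower in 129S2 than in D2 at P90, with a difference of -0.81 (adjusted p = 4.12e-06). At single stages of liver, 1 member was called for D2 against B6 at P90 (5.01% of all genes), 3 for 129S2 against D2 at P90 (6.14%), 1 for 129S2 against B6 at P90 (7.93%) and 1 for 129S2 against D2 at P7 (6.53%). In brain the only member called at a single stage was Atp5g2 at E14.5 (4.39% of all genes), with D2 minus B6 at 0.62 ± 0.19 (adjusted p = 0.023), the stage of the low B6 array.

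Whether strain differences vary with stage was tested with an F test in limma. In brain 0 of 81 members were called (4.72% of all genes) while 1, Cox6a2, passed the adjusted p alone (6.41%) and 3 an unadjusted p of 0.05 (19.8%). On simulated brain arrays this test found 49% of genes changed 1.5-fold at P90 only, so such changes can be missed. Without the low B6 array 1 was called, the complex I subunit Ndufb6 (adjusted p = 0.0188), with 4.48% of all genes. In liver 13 of 81 were called (31.8% of all genes), and 31 passed the adjusted p alone (41.5%). Strain by tissue in limma gave 0 of 81 (4.54%), 12 by the adjusted p alone (30.7%) and 26 by an unadjusted p of 0.05 (49.7%).

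Ndufb5, a subunit of the membrane arm of complex I, was at 11.26, 11.30 and 11.51 in D2 at P1, at 12.05, 12.05 and 11.78 in B6 and at 11.94, 11.87 and 11.64 in 129S2. The D2 arrays lay below all others, and D2 minus B6 was -0.61 (adjusted p = 6.13e-06). It was between 0.04 and 0.20 at the other stages. Ndufa8, Atp5a1 (the alpha subunit of ATP synthase), Atp5g1, Atp5o and Ndufab1 were also lower in D2 than in B6 at P1, by 0.64, 0.55, 0.51, 0.48 and 0.45, and Ndufb7 and Ndufa2 higher, by 0.56 and 0.51. Ndufa10, not among the 13, had -0.68 at P1 (adjusted p = 0.0123). Ndufb5, Ndufa8 and Ndufa10 were the 3 members called for D2 against B6 at P1 (8.06% of all genes), and Ndufa2 the 1 called for 129S2 against D2 (7.42%).

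The same 3 arrays stood apart in the control probe sets for RNA length. The difference between the 3' and 5' probe sets was 0.82 to 1.72 for Gapdh on the D2 arrays of P1 liver and 0.20 to 0.52 on the other 6. For Actb it was 1.58 to 3.21 against 0.76 to 1.20. Replicate 1 of D2 had the highest value of both. Its removal left 9 members called, without Atp5a1, Atp5o, Ndufa2 and Ndufab1. Without all 9 arrays of P1, an alternative added after these values were seen, 4 of 81 members were called (22.4% of all genes): Ndufaf6, Ndufaf5, Ndufb2 and Ndufaf3. With P1 left out, 0 members were called between strains in liver (6.25% of all genes), as with it, and Ndufs5 was -0.48 and -0.53 against B6 and D2. The part of RNA length in the P1 differences was not tested.

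**Figure D5:**
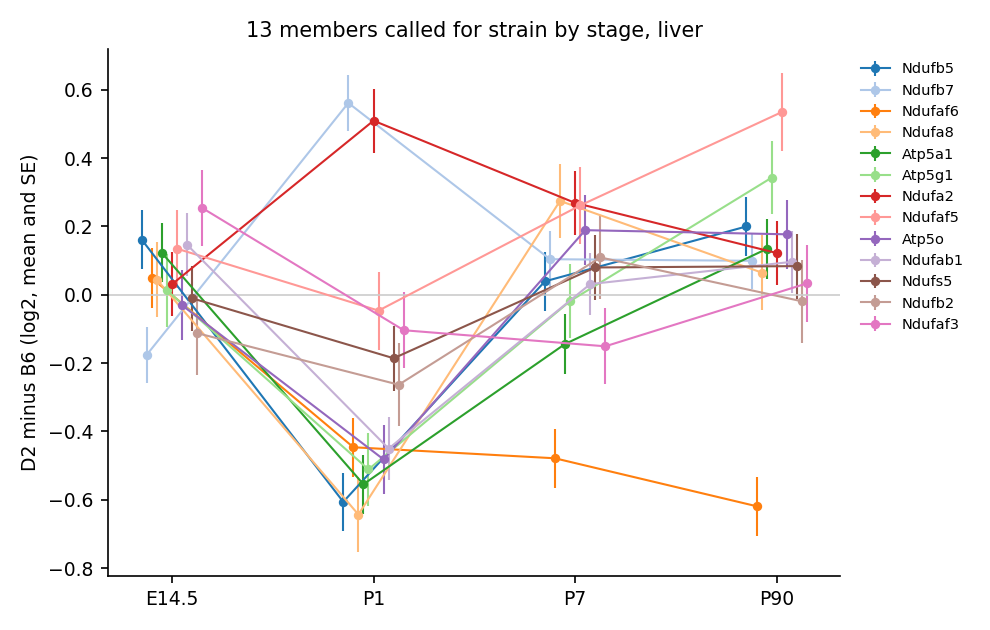
Difference between D2 and B6 in liver (vertical axis, log2 units, mean and SE from limma) at each stage for the 13 members called for strain by stage. At P1 Ndufb5, Ndufa8 and 4 others are 0.45 to 0.64 lower and Ndufb7 and Ndufa2 0.56 and 0.51 higher, and Ndufaf6 is lower from P1 on.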

How the data were processed

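RNA of whole brain and liver was hybridised to 72 arrays, and the authors deposited log2 values made with RMA, per the submitters' processing notes (version not given in the sources used here). The deposited table shows 8 sets of 9 arrays normalized apart: identical values recur within sets and almost never between them. Array medians ranged from 5.03 to 7.30. Strains were tested on the deposited values with limma 3.58.1 in R 4.3.3 (mean per group, eBayes, Benjamini-Hochberg over all genes), and a call needed an adjusted p below 0.05 and 1.5-fold. The planned tests between stages or tissues were replaced by sizes after quantile normalization (36 arrays of a tissue, or 72), and ± there is the SD over 3 strains. The strains share the sets, so neither this SD nor the rule of 3 strains shows an offset left between sets. Genes entered when 1 group mean exceeded 6.66. Members and lists were chosen with earlier results of these data known. The named members are the 6 highest and 6 lowest per stage and tissue comparison, those called for strain, strain by stage or tissue, the isoform pairs and the extremes of each step, and up to 3 genes per other list. Further members given as examples of a complex were chosen after their values were seen. The scripts were tested on simulated data. In simulated brain arrays the adjusted p found 97% of genes with a 1.5-fold strain difference. For a difference at P90 only, the strain by stage test found 49% at 1.5-fold and 89.9% at 2-fold. The alternatives were other scalings, filters, probe set means, fold minimums, trended variance, a replicate block and leaving out arrays.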

Additional observations from a re-analysis of the deposited data

Results flagged for a closer look

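For 13 members the difference between strains itself differed between stages in liver, by the F test of strain by stage in limma. The size given is the largest range of a strain difference over the 4 stages in log2 units. Among subunits of complex I it was 0.92 for Ndufa8, 0.81 for Ndufb5, 0.79 for Ndufb2, 0.74 for Ndufb7, 0.71 for Ndufs5, 0.60 for Ndufa2 and 0.60 for Ndufab1. Among assembly factors it was 0.77 for Ndufaf5, 0.69 for Ndufaf3 and 0.67 for Ndufaf6. In ATP synthase it was 0.85 for Atp5g1, 0.69 for Atp5a1 and 0.67 for Atp5o. The share of members, 13 of 81, is below that of all genes tested, 31.8%. Without the P1 arrays, 4 of the members were called.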

How the results depend on the processing

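Scaling moved the stage and tissue counts most. As deposited, 5 members were higher and 7 lower in P90 brain, 1 higher and 33 lower in P90 liver, and 4 higher and 1 lower in brain against liver. After median centring the counts were 47 and 1, then 65 higher, and 62 lower in brain against liver. The members' median minus that of all genes kept its sign: in brain 0.75, with 0.91 under both scalings and 0.61 with the mean of probe sets; in liver 0.46, with 1.08, 0.31 and, with no filter, 0.34; and between tissues -0.14, with -0.66. Centring gives the same distance as the deposited values by construction, so these scalings are not separate checks of it. A fold minimum of 2 left 10 higher and 0 lower in brain, 4 higher in liver, and 0 higher and 1 lower between tissues. The mean of probe sets gave 7 higher and 3 lower in liver, and 8 calls for strain by stage in liver. Without assembly factors 0 members were higher in brain against liver. With no fold minimum the strain counts were 6 in brain and 30 in liver, strain by stage 1 and 31, and strain by tissue 12. Leaving out each array in turn gave 0 to 1 for strain and for strain by stage in brain, 0 for strain in liver and 9 to 20 for strain by stage in liver, where leaving out replicate 3 of B6 P1 gave the 20. Leaving out all P1 liver arrays gave 4. With each array left out in turn, the members higher were 21 to 28 in brain and 12 to 14 in liver. Arrays of 1 number did not deviate together throughout: correlations of their deviations from group means were over 0.1 in 27 of 72 cases between strains and 19 of 36 between tissues, with all 3 over it in 4 of 24 and 5 of 12 pairs of groups, and each array closest to its own number in 5 and 4. The highest were 0.52, 0.57 and 0.59, between D2 and B6 of P7 brain. Whether samples of 1 number share more than the number was not settled. With the number as a block within tissue and stage, strain by stage in liver had 14 calls, and strain stayed at 1 in brain and 0 in liver. For strain by tissue, a block across tissues, added after the data were seen, gave 0, and 14 with no fold minimum. The sign reversed for Cox6a2 (-0.055), Ndufaf6 (-0.33) and Ndufaf2 (-0.46) in liver as deposited. With the mean of probe sets it reversed for Atp5g1 in brain against liver (0.34), Atp5g3 over Atp5g1 between tissues (-0.35) and Ndufa12 for D2 minus B6 in liver (0.11). The cause was not tested. Of 3149 single values under alternatives, 2994 stayed the same, 113 moved, 23 lost and 13 gained a call, and 6 reversed sign. Many of these leave out 1 array. A strain difference cannot change in size when that array belongs to a strain outside the pair, so the share that stayed overstates stability. For strain tests, the same meant an unchanged call. For stage, tissue and isoform values it meant a change smaller than the SD over strains, and such a value may still have crossed the fold minimum.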
